A study of Mus musculus with 30 samples.

Results

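The genes that set sorted neurons apart from 2 other sorted brain populations were compared in 15 libraries from non-transgenic (non-Tg) mice, of 30 libraries in the series. All mice were 11.5 months old, and the non-Tg animals were littermates of PS2APP mice, a transgenic line with human forms of presenilin 2 and of the amyloid precursor protein. The 3 non-Tg groups, with 5 libraries each, were NeuN+ neurons, Cd11b+ myeloid cells and Gfap+ astrocytes, and they are called the neuron, myeloid and astrocyte sorts below. The same sorts from PS2APP mice, with 5 libraries each, were kept for a separate test. A gene was called neuron-enriched when its count was higher in the neuron sort against the myeloid sort and also against the astrocyte sort, at an adjusted p of 0.05 in edgeR's quasi-likelihood test. By that rule 3597 of 17496 tested genes (20.6%) were neuron-enriched. Pooling of animals, and any animal shared by several libraries, is not recorded in the labels. The p-values therefore describe variation among libraries, which may be technical.

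As background, NeuN is a nuclear splicing factor of most mature neurons, encoded by Rbfox3. Neurons keep a set of genes for excitability, vesicle release and transmitter reception switched on, and the repressor REST holds many of these genes off in other cells by binding an element called RE1. Myeloid cells of the brain are mostly microglia, its resident macrophages, and astrocytes take up transmitter and potassium around synapses.

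Library totals ran from 3412723 to 6749681 counts, and every neuron library had at least 1 count for between 23468 and 24443 genes, against 19608 to 20797 in the myeloid and 21140 to 22493 in the astrocyte sort. Mitochondrial transcripts took 1.21 ± 0.336% of neuron counts, 8.75 ± 2.89% of myeloid counts and 3.58 ± 0.866% of astrocyte counts (SD, n = 5 each; two-sided exact permutation p = 0.00794 for either comparison, the smallest this design allows, adjusted p = 0.00794 over 2 tests). Per the labels, typical RNA yields were 200 to 300 ng from neurons, 10 to 20 ng from microglia and 2 to 5 ng from astrocytes, and neurons were spun at 2600 rcf against 6600 rcf for the other sorts, so these steps and cell type cannot be told apart. Replicates are numbered here in the order of the deposited libraries within each group, so the same number in different sorts does not mean a shared animal or batch. Neuron replicate 1 and astrocyte replicate 1 gave most of the single high or low values among named genes. Without the former 3568 genes were neuron-enriched, and without the latter 3733.

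Markers of each labelled cell type, taken as a sum, were highest in the sort of that type. Rbfox3, whose protein was the sorting antigen (GRCm38.p6, chr11:118489760-118911597, minus strand) stood at 174, 140.1, 100.4, 98.2 and 133 CPM (counts scaled to a common library size with TMM factors) in neuron libraries 1 to 5, at 6.79, 6.67, 8.19, 7.34 and 8.37 CPM in myeloid libraries and at 17.3, 5.01, 9.86, 19.7 and 7.19 CPM in astrocyte libraries. No astrocyte or myeloid library reached the lowest neuron library. Its log2 fold change was 4.11 ± 0.31 against the myeloid sort and 3.43 ± 0.29 against the astrocyte sort (SE; edgeR adjusted p = 9.00e-11 and 1.61e-09). Gria2 (chr3:80681450-80804227), the AMPA receptor subunit that limits calcium entry, stood at 1932, 2019.5, 2239.9, 2003 and 1825 CPM in neuron libraries, 68.98, 87.8, 61.5, 58.7 and 80.95 in myeloid libraries and 802, 738, 729.9, 818 and 882 in astrocyte libraries. The groups did not overlap, but astrocyte libraries held far more Gria2 than myeloid libraries, and the log2 fold changes were 4.81 ± 0.16 against the myeloid sort and 1.34 ± 0.14 against the astrocyte sort (edgeR adjusted p = 3.13e-16 and 3.57e-08).

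Snap25 (chr2:136713439-136782428), a SNARE protein of vesicle fusion, stood at 273, 391, 398, 289 and 311 CPM in neuron libraries, 61.1, 30.8, 47.6, 51.2 and 92.7 in myeloid libraries and 94.6, 49.9, 69.05, 77.9 and 71.9 in astrocyte libraries, again without overlap. Its log2 fold changes, 2.55 ± 0.24 against the myeloid sort and 2.19 ± 0.23 against the astrocyte sort, passed in both comparisons (edgeR adjusted p = 2.94e-09 and 4.42e-08). Meg3 (chr12:109540996-109571729), an imprinted long noncoding RNA, stood at 17901, 15706, 19521, 19011 and 17874 CPM in neuron libraries. Myeloid libraries held 423, 536, 507, 320.4 and 370.2 CPM of it and astrocyte libraries 1284, 640.5, 803, 955 and 618 CPM. Its log2 fold changes were 5.38 ± 0.23 against the myeloid sort and 4.39 ± 0.22 against the astrocyte sort (edgeR adjusted p = 1.31e-14 and 3.56e-13).

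Markers of the other sorts were lower in neuron libraries than in their own sort, but their sums there were not at 0. Gfap, the astrocyte filament protein, averaged 3.81 ± 1.11 CPM in neuron, 18.5 ± 5.09 in myeloid and 757 ± 179 in astrocyte libraries, and Itgam, which encodes Cd11b, averaged 7.69 ± 1.36 CPM in neuron, 1589 ± 196 in myeloid and 5.95 ± 3.798 in astrocyte libraries (SD, n = 5 each). The 11 microglia markers summed to between 59.1 and 88.6 CPM in neuron libraries and between 49.1 and 78.3 CPM in astrocyte libraries, against 9793 to 11421 CPM in myeloid libraries, and each of the 11 was lower in neurons than in the myeloid sort. The 10 astrocyte markers summed to between 644 and 751 CPM in neuron libraries, of which Slc1a2 made up 426 and Slc4a4 235 on average, against 10992 to 18444 CPM in astrocyte libraries. All 10 oligodendrocyte markers were lower in neurons against both sorts, with sums of 160 to 285 CPM in neuron, 729 to 1156 CPM in myeloid and 823 to 1324 CPM in astrocyte libraries. Of 6 precursor markers, Tnr and Lhfpl3 were neuron-enriched while Pdgfra, Gpr17 and Cspg4 were lower in neurons against both sorts. These 6 summed to 344 to 512 CPM in neuron, 53.4 to 78.5 CPM in myeloid and 318 to 446 CPM in astrocyte libraries. The 6 listed mural markers summed to 175 to 246 CPM in astrocyte libraries, against 6.01 to 7.72 CPM in neuron and 11.9 to 32.0 CPM in myeloid libraries. Of 6 endothelial, 4 mural and 3 ependymal markers tested none was neuron-enriched, and of the blood markers only Alas2, a heme synthesis enzyme, was tested, and it was neuron-enriched at 25.6 CPM in neuron, 3.53 in myeloid and 12.5 in astrocyte libraries. The 4 neuron markers together held between 438 and 661 CPM in myeloid and between 1433 and 2199 CPM in astrocyte libraries. In bulk libraries, fewer cells of a type and less RNA per cell cannot be told apart, and the part of neuronal RNA carried into the other sorts was not tested. Nor was the part of other cell types in the astrocyte sort, so a level there need not come from astrocytes.

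**Figure D1:**
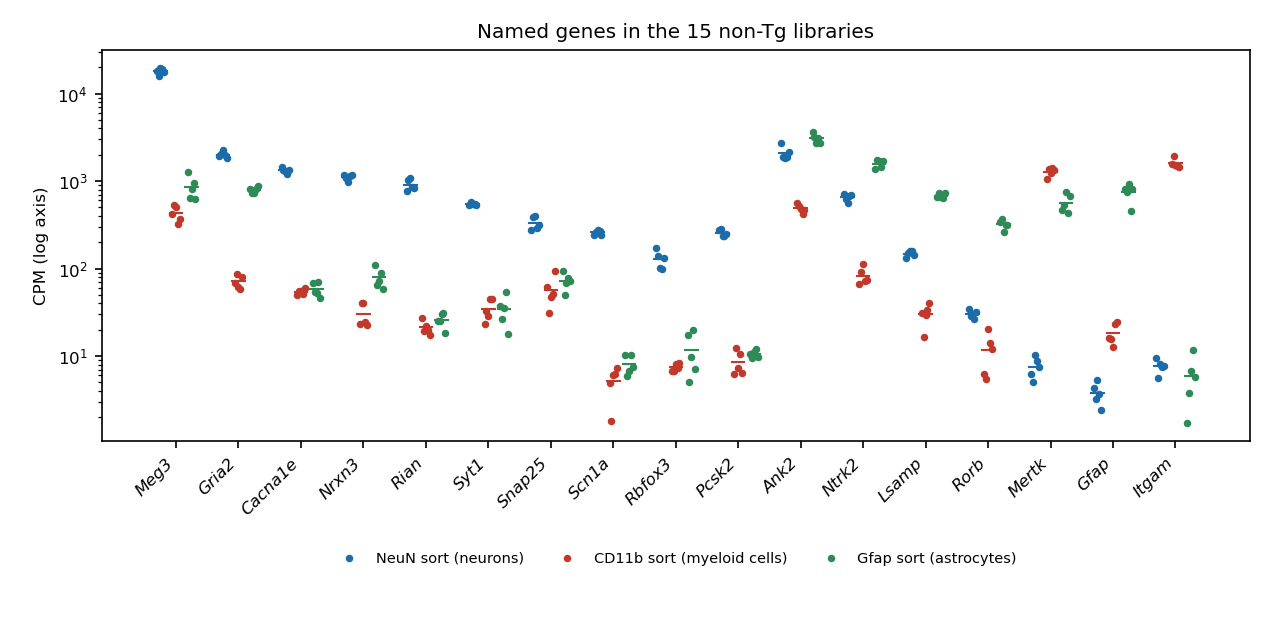
CPM of 17 named genes in the 15 non-Tg libraries on a log axis, with a point per library and a line at the mean of each sort of 5 libraries. The first 10 genes are highest in each neuron library, Ank2 to Rorb have their highest mean in astrocyte libraries, Gfap is highest there too, and Mertk and Itgam are highest in myeloid libraries.

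Against the myeloid sort, 6447 genes (36.8%) were higher and 5811 (33.2%) lower in neurons. Against the astrocyte sort, 5085 genes (29.1%) were higher and 4618 (26.4%) lower. With library totals as the only scaling, the latter split was 6816 higher and 3435 lower, and the median log2 fold change of all genes against astrocytes moved from 0.08 to 0.44. Both comparisons use the same 5 neuron libraries, so they are not independent. Beside the 3597 neuron-enriched genes, 2698 (15.4%) were lower in neurons against both sorts, 818 were higher than in myeloid but lower than in astrocyte libraries, and 607 the reverse. In 3201 of the tested genes (18.3%) every neuron library lay above each of the 10 other libraries, and 3117 of the neuron-enriched genes (86.7%) were among them. As a description of the genes the rule chose, 2950 were at least 2-fold, 1872 at least 4-fold and 474 at least 16-fold higher against both sorts by the fitted values. Their counts made up 38.4 ± 0.512% of neuron libraries, 6.25 ± 0.303% of myeloid libraries and 8.11 ± 0.836% of astrocyte libraries (SD, n = 5 each).

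**Figure D2:**
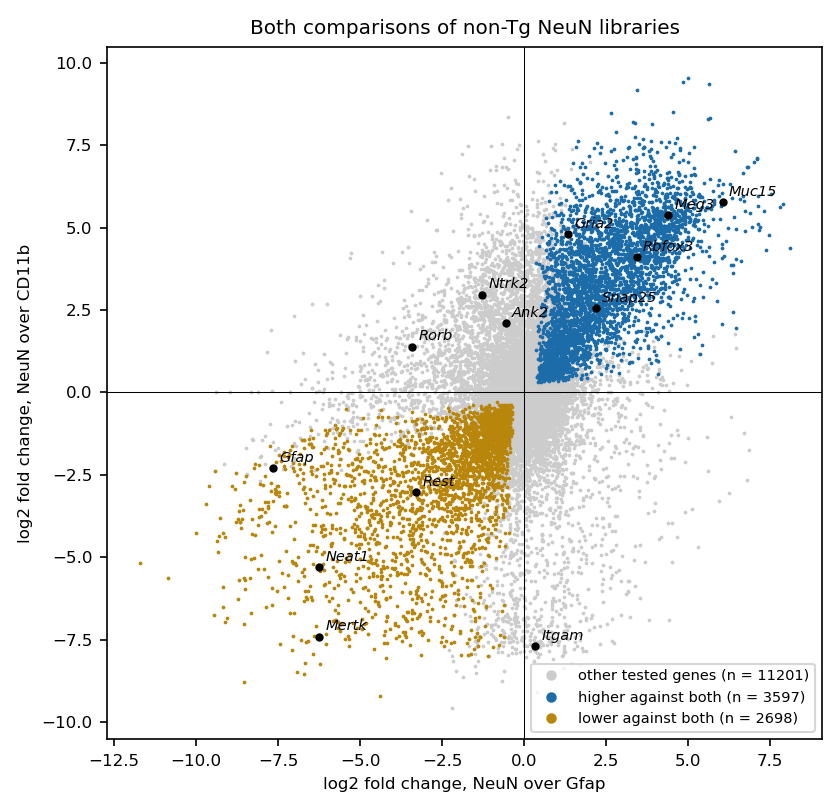
Log2 fold change of the neuron sort over the astrocyte sort (x axis) and over the myeloid sort (y axis) for the 17496 tested genes, a point per gene. Blue points are the 3597 genes higher against both and ochre points the 2698 lower against both; Ank2, Ntrk2 and Rorb lie between, higher than in myeloid but lower than in astrocyte libraries.

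The astrocyte sort lay nearer to neurons for most neuron-enriched genes. The median log2 fold change was 3.43 against the myeloid and 2.24 against the astrocyte sort, and in 2679 of the 3597 (74.5%) the astrocyte difference was the smaller. That share was not computed over all tested genes, where higher calls were also fewer against the astrocyte sort (5085) than against the myeloid sort (6447). Among the 2818 neuron-enriched genes with at least 10 CPM in neurons, the median level in astrocyte libraries was 23.9% of the neuron level and that in myeloid libraries 10.3%. Levels under 5% of the neuron level were found for 280 of them (9.94%) in the astrocyte sort and for 859 (30.5%) in the myeloid sort.

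The genes closest to the threshold show what a call at its edge looks like. Togaram1 averaged 85.4 ± 5.49 CPM in neuron, 64.6 ± 19.5 in myeloid and 48.6 ± 3.36 in astrocyte libraries, Cmc2 5.91 ± 0.383 CPM in neuron, 2.49 ± 1.9 in myeloid and 1.51 ± 1.14 in astrocyte libraries and Nus1 30.4 ± 5.37 CPM in neuron, 20.7 ± 5.89 in myeloid and 20.9 ± 4.71 in astrocyte libraries (SD). Their larger edgeR adjusted p were 0.0494, 0.0496 and 0.0498. Just outside stood Dnal1 at 53.5 CPM in neuron, 12.5 in myeloid and 33.5 in astrocyte libraries, Cpxm1 at 9.88 CPM in neuron, 1.41 in myeloid and 5.45 in astrocyte libraries and Taf5 at 23.9 CPM in neuron, 14.5 in myeloid and 15.03 in astrocyte libraries, with larger adjusted p of 0.0502, 0.0508 and 0.0508 in edgeR. Each of these 6 calls changed when single libraries were left out.

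The 12 well expressed genes with full symbols and the largest differences against both sorts are described first. Muc15, a membrane mucin, stood at 36.7, 54.6, 72.7, 64.3 and 51.2 CPM in neuron libraries, 0.543, 2.16, 0, 0.781 and 1.13 in myeloid libraries and 0.214, 0, 2.16, 1.397 and 0.496 in astrocyte libraries. Cntn5, a contactin of axonal contact, stood at 137, 116, 126, 143 and 127 CPM in neuron libraries, 6.25, 1.44, 2.73, 1.72 and 1.58 in myeloid libraries and 2.78, 4.39, 4.62, 2.17 and 1.24 in astrocyte libraries. Neither gene came near overlap, and the log2 fold changes were 5.77 ± 0.50 against the myeloid sort and 6.05 ± 0.51 against the astrocyte sort for Muc15 and 5.63 ± 0.34 against the myeloid sort and 5.43 ± 0.34 against the astrocyte sort for Cntn5 (edgeR adjusted p = 9.49e-10 and 1.40e-09 and adjusted p = 2.96e-12 and 9.58e-12).

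Cntn3, another contactin, stood at 88.01, 91.7, 94.2, 91.7 and 94.9 CPM in neuron libraries, 4.62, 2.89, 1.21, 0.468 and 2.71 in myeloid libraries and 3.84, 1.04, 3.699, 3.26 and 2.23 in astrocyte libraries. Nell1, a secreted glycoprotein, averaged 50.3 ± 7.56 CPM in neuron, 0.815 ± 0.658 in myeloid and 1.25 ± 0.8902 in astrocyte libraries. Itga8, an integrin subunit, averaged 70.1 ± 8.82 CPM in neuron, 1.67 ± 0.897 in myeloid and 1.77 ± 0.972 in astrocyte libraries, and Cdh18, a cadherin, 55.9 ± 4.94 CPM in neuron, 0.908 ± 0.745 in myeloid and 1.52 ± 0.671 in astrocyte libraries. Others of the 12 were Khdrbs2, an RNA-binding protein (61.4 CPM in neuron, 1.79 in myeloid and 1.49 in astrocyte libraries), Cpne7, a copine that binds membranes with calcium (35.6 CPM in neuron, 0.8903 in myeloid and 0.876 in astrocyte libraries), Sgcz, a sarcoglycan (40.9 CPM in neuron, 0.959 in myeloid and 1.11 in astrocyte libraries), Epha10, an ephrin receptor (119 CPM in neuron, 2.71 in myeloid and 3.49 in astrocyte libraries), Fam135b (151 CPM in neuron, 3.83 in myeloid and 4.48 in astrocyte libraries) and Rian, which is described with its neighbours below. In each of the 12 the smaller of the log2 fold changes was at least 5.03.

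Per gene length, the authors' deposited RPKM ranked other genes first. Among neuron-enriched genes with a full symbol, Meg3 had the highest value in neurons, 409.5 ± 41.4 RPKM (SD, n = 5), with 8.99 in myeloid and 20 in astrocyte libraries. Cdr1, whose locus also gives rise to a circular RNA from the other strand, followed at 304 ± 186 RPKM, and the counting strand is not given in the sources used here, so the transcripts cannot be told apart. Its CPM in neuron libraries were 5058, 1599, 1815, 1479 and 2103, so replicate 1 stood far above the other 4. Snhg11, a small nucleolar RNA host gene, came to 295 ± 35.5 RPKM and R3hdm1, an R3H-domain protein, to 181 ± 35.2 RPKM. Zranb2, a splicing factor, was at 65.7 ± 21.3 RPKM; its difference from astrocytes (log2 fold change 0.70, edgeR adjusted p = 0.0269) did not pass without neuron replicate 1 (adjusted p = 0.103), nor without astrocyte replicate 2, 3 or 4 or myeloid replicate 5 (0.0551 to 0.124). Rian, described below, was at 74.6 RPKM. The other names in the first 10, Mir1906-1, Mir770, Mir297a-2 and Mir29c, are miRNA genes, and reads counted there can come from longer transcripts that overlap them.

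A neighbourhood on chromosome 12 held many of these noncoding RNAs. The imprinted interval from Dlk1 to Dio3 (GRCm38.p6, chr12:109452485-110281097) was looked at after Meg3, Rian and Mirg had been seen among the highest genes. Of 84 gene identifiers in it, 22 were tested and 21 were neuron-enriched: 12 of 12 miRNA genes, 5 of 5 long noncoding RNAs, 3 small nucleolar RNA genes and Rtl1, a retrotransposon-derived gene. Dlk1, a membrane ligand, was the exception. Many of the 22 were near 0 outside neurons and so were tested only through their neuron counts, which nearly fixes the call, and the count is a description with no test. Over all tested genes 20.6% were neuron-enriched, but that share is no yardstick for an interval chosen in this way. Genes in the interval overlap and many share long transcripts, so they are not independent members.

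Rian stood at 761, 1016, 1082, 865 and 826 CPM in neuron libraries, 27.4, 19.5, 22.1, 19.7 and 17.4 in myeloid libraries and 25.2, 25.5, 29.9, 31.2 and 18.6 in astrocyte libraries (log2 fold changes 5.43 ± 0.19 against the myeloid sort and 5.12 ± 0.19 against the astrocyte sort, edgeR adjusted p = 7.49e-16 and 3.52e-15). Mirg, a miRNA host transcript, stood at 69.1, 64.1, 38.5, 45.5 and 55.2 CPM in neuron libraries, 1.09, 1.62, 3.64, 3.59 and 1.81 in myeloid libraries and 4.91, 1.46, 2.16, 1.24 and 1.74 in astrocyte libraries. The neuron libraries lay above every other library for both. Rtl1 averaged 192 ± 42.0 CPM in neurons, 4.47 CPM in myeloid and 10.5 CPM in astrocyte libraries, while Dlk1 averaged 5.87 ± 2.05 CPM in neurons and 4.18 CPM in astrocytes. Rtl1 overlaps noncoding RNAs of this interval, so its value may include their reads.

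The 120 bases before the Meg3 start (RefSeq, GRCm38.p6, plus strand, chr12:109540876-109540995) are shown since Meg3 had the highest RPKM among neuron-enriched genes with a full symbol. Capitals mark a cyclic AMP response element (TGACGTCA) and overlapping TATA motifs (TATAAA on either strand).
Meg3: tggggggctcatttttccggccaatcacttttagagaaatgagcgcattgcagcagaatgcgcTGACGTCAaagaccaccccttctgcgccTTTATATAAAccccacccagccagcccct
Windows of 300 bases (250 before to 50 after a RefSeq start) were matched to 2404 of the 3597 neuron-enriched genes, in 3256 windows. TGACGTCA was found in 2.36% of them and in 2.70% of the 15935 windows of tested genes. TATAAA, on either strand, was in 8.85% against 7.96%, and GGGCGG in 50.03% against 55.95%.

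RE1 was searched as TTCAGCACC, 2 bases of any kind and GGACAGNGC, on both strands, with up to 3 mismatches over 17 fixed bases. It was found in 21 of the 3256 neuron-enriched windows (0.645%), in 42 of the 15935 windows of all tested genes (0.264%) and in 4 of the 2646 windows of genes lower in neurons against both sorts (0.151%). Windows can overlap, and those of Lca5 among the 21 hold the same site, so windows are not separate matches. Up to 2 mismatches left 11 (0.338%), 16 and 0 windows. With 4 mismatches the shares were 2.24%, 1.78% and 1.13%. The matches in listed neuronal genes are shown in the gene's direction with 15 bases on each side, the match in capitals (GRCm38.p6), because these genes recur below.
Gria2 (chr3:80802974-80803023, minus strand): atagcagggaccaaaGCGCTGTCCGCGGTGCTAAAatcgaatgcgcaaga
Syn1 (chrX:20921116-20921165, minus strand): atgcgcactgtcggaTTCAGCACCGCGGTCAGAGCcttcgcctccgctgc
Rasgrf1 (chr9:89909574-89909623, plus strand): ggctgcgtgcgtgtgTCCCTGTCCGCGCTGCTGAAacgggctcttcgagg
Sptbn4 (chr7:27396265-27396314, minus strand): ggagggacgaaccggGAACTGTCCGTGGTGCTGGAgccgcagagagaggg
Gad2 (chr2:22622146-22622195, plus strand): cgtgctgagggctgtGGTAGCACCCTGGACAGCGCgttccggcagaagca
The Gria2 and Syn1 matches had 1 mismatch, those of Rasgrf1 and Sptbn4 had 2, and that of Gad2 had 3. Rbfox3 and Meg3 had no match in the windows searched, with at best 6 mismatches in the Rbfox3 window and 6 and 7 in those of Meg3. The Rbfox3 window (chr11:118760992-118761291, minus strand) lies inside the gene, so the gene's outer start at 118911597 was not searched. Snap25 had no window of its own. A match with 1 mismatch in the window of Gm32659, a neuron-enriched gene, lies within the Snap25 span (chr2:136714338-136714357). A match is a description of letters and no measure of binding.

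The regulators themselves were split. Rest averaged 6.84 ± 1.52 CPM in neuron, 55.7 ± 7.98 in myeloid and 66.7 ± 17.7 in astrocyte libraries, with log2 fold changes of -3.02 ± 0.22 against the myeloid sort and -3.29 ± 0.22 against the astrocyte sort (SE; edgeR adjusted p = 6.25e-11 and 3.75e-11). None of the 14 repressors of neuronal genes and glial regulators was neuron-enriched, and 6 were lower against both sorts (Rest, Id1, Id3, Notch1, Notch2 and Olig2). Olig2, a transcription factor of the oligodendrocyte lineage, stood at 0.343, 0.126, 0.207, 0.167 and 0.152 CPM in neuron libraries, 3.802, 2.16, 1.52, 3.28 and 4.07 in myeloid libraries and 181, 159, 98.3, 127 and 99.7 in astrocyte libraries. Its neuron values were all below 1 CPM. Ptbp1, the splicing repressor that neurons replace by Ptbp2, averaged 33.8 ± 9.15 CPM in neuron, 87.5 ± 12.3 in myeloid and 44.6 ± 9.9 in astrocyte libraries; it was lower against the myeloid sort but its difference from astrocytes did not pass (edgeR adjusted p = 3.47e-06 and 0.0981).

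Of 21 tested neuronal transcription factors, 15 were neuron-enriched. The gene lists here, above and below were chosen with earlier results of these data known. Their counts are therefore descriptions, to be read beside the shares over all tested genes. Those shares were 20.6% neuron-enriched and 15.4% lower in neurons against both sorts. Npas4, an activity-induced factor, stood at 119, 189.5, 109.8, 106 and 155 CPM in neuron libraries, 2.17, 9.74, 1.52, 2.97 and 3.39 in myeloid libraries and 10.04, 5.64, 8.32, 4.81 and 6.45 in astrocyte libraries. Myt1l, a zinc finger factor of neuronal identity, stood at 1264, 659.9, 586, 553 and 675 CPM in neuron libraries, with replicate 1 above the others, 16.3, 24.9, 30.02, 21.2 and 22.2 in myeloid libraries and 96.1, 39.9, 43.8, 37.9 and 31.2 in astrocyte libraries. Neurod1, a basic helix-loop-helix factor, averaged 13.1 ± 1.75 CPM in neurons. It had 409 counts over the 5 neuron libraries and 1 over the 5 myeloid libraries, a ratio of 306 after scaling (95% exact interval 54.7 to 12126, counting error only). Tbr1, a marker of deep-layer cortical neurons, averaged 40.9 ± 7.92 CPM in neurons and was enriched.

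Each of the other 6 factors was higher in 1 of the other sorts than in neurons. Rorb, a nuclear receptor of layer 4 cortex, stood at 34.1, 28.6, 30.2, 26.3 and 31.6 CPM in neuron libraries, 6.25, 5.41, 20.3, 14.2 and 11.98 in myeloid libraries and 341, 366, 262, 316 and 318 in astrocyte libraries, the highest level being in astrocytes. Fezf2, a factor of deep-layer projection neurons, was also higher in astrocyte than in neuron libraries (log2 fold change -1.86 ± 0.35, edgeR adjusted p = 8.58e-05). Mef2c, Zbtb18 and Cux1 were higher in myeloid libraries, with 245 CPM in neuron, 455 in myeloid and 51.8 in astrocyte libraries for Mef2c, and 41.3 CPM in neuron, 129 in myeloid and 20.3 in astrocyte libraries for Zbtb18.

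Of 18 RNA-binding and splicing proteins 17 were neuron-enriched, with a median log2 fold change of 3.601 against the myeloid and 2.88 against the astrocyte sort, beside 0.08 and 0.08 over all tested genes. Srrm3, which promotes neuronal microexons, stood at 134, 76.2, 62.3, 74.5 and 89.7 CPM in neuron libraries, 0.815, 3.61, 3.94, 2.34 and 1.81 in myeloid libraries and 5.55, 3.97, 9.25, 5.43 and 1.24 in astrocyte libraries. Elavl2, an RNA-stabilising Hu protein, stood at 45.5, 46.9, 54.7, 49.3 and 42.9 CPM in neuron libraries, 5.97, 2.53, 3.03, 0.312 and 1.81 in myeloid libraries and 3.84, 0.209, 2.16, 3.57 and 3.22 in astrocyte libraries. Neither gene overlapped between neurons and the other sorts. Ptbp2, the neuronal splicing regulator, passed with log2 fold changes of 0.71 ± 0.19 against the myeloid sort and 0.49 ± 0.19 against the astrocyte sort. Nova1 was the exception, at 90.3 ± 13.9 CPM in neuron, 62.5 ± 12.8 in myeloid and 120.4 ± 25.8 in astrocyte libraries; its call as lower than in astrocytes (edgeR adjusted p = 0.0475) did not hold without astrocyte replicate 1 (adjusted p = 0.166), nor without astrocyte replicate 5, myeloid replicate 2 or 4 or any of neuron replicates 2 to 5 (0.0507 to 0.114). With library totals alone the Nova1 difference against astrocytes was -0.041 in place of -0.416 (log2; adjusted p = 0.833).

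Among ion channels, 8 of 9 sodium channel genes were neuron-enriched. Scn1a, a pore subunit, stood at 239, 263, 279, 268 and 243 CPM in neuron libraries, 4.89, 1.804, 6.06, 6.25 and 7.24 in myeloid libraries and 10.2, 5.85, 6.78, 10.2 and 7.44 in astrocyte libraries. Scn3a, another pore subunit, averaged 182 ± 11.6 CPM in neuron, 4.35 ± 0.815 in myeloid and 8.94 ± 3.11 in astrocyte libraries, and Scn9a 40.3 ± 10.1 CPM in neuron, 0.966 ± 0.469 in myeloid and 1.31 ± 0.774 in astrocyte libraries. The log2 fold changes of Scn1a were 5.63 ± 0.26 against the myeloid sort and 4.98 ± 0.25 against the astrocyte sort (edgeR adjusted p = 4.74e-14 and 3.88e-13).

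Of 18 calcium channel genes 13 were neuron-enriched. Cacna1e, the pore of R-type channels, stood at 1465, 1337, 1314, 1198 and 1327 CPM in neuron libraries, 50.2, 55.4, 54.9, 50.9 and 59.7 in myeloid libraries and 68.3, 53.5, 53.02, 69.4 and 46.4 in astrocyte libraries, and its myeloid and astrocyte values overlapped each other. Cacna1b, the N-type pore, averaged 397 ± 45.95 CPM in neuron, 8.92 ± 3.801 in myeloid and 21.8 ± 6.56 in astrocyte libraries. Cacng3, an auxiliary subunit of AMPA receptors, averaged 59.8 ± 9.33 CPM in neuron, 2.605 ± 1.65 in myeloid and 2.44 ± 1.27 in astrocyte libraries. Of the rest, Cacna1a and Cacna1d, the P/Q-type and an L-type pore, were higher than in astrocytes but did not pass against the myeloid sort, where Cacna1a averaged 394 ± 349 and Cacna1d 459 ± 74.6 CPM, against 491 ± 109.8 and 494 ± 93.97 CPM in neurons. Cacna2d2, Cacnb1 and Cacng8 were higher than in myeloid cells but did not pass against astrocytes. Cacng8 was low in every sort, and the sign of its astrocyte difference was not stable across scalings.

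In the presynaptic list, 19 of 22 genes were neuron-enriched, beside 20.6% of all tested genes. The list's median log2 fold changes were 2.73 against the myeloid and 2.13 against the astrocyte sort. Syt1, the calcium sensor of vesicle fusion, stood at 528, 577, 547, 541 and 536 CPM in neuron libraries, 23.4, 32.6, 28.5, 44.97 and 44.5 in myeloid libraries and 37.4, 26.7, 35.4, 53.4 and 18.1 in astrocyte libraries. Rims1, an active zone scaffold, stood at 260.1, 188, 157, 164 and 207 CPM in neuron libraries, 26.9, 9.02, 13.6, 6.71 and 7.69 in myeloid libraries and 15.8, 9.61, 6.78, 9.47 and 3.72 in astrocyte libraries. In both genes the neuron libraries lay far above the rest. Sncb, beta-synuclein, averaged 40.2 ± 5.74 CPM in neuron, 1.46 ± 0.635 in myeloid and 2.57 ± 1.86 in astrocyte libraries, and Syn1, a vesicle phosphoprotein whose RE1 match is shown above, 157 ± 17.7 CPM in neuron, 21.3 ± 5.22 in myeloid and 32.6 ± 7.696 in astrocyte libraries.

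Vamp2, the vesicular SNARE partner of Snap25, did not follow them. It stood at 72.2, 73.04, 70.8, 77.3 and 68.8 CPM in neuron libraries, 35.8, 37.9, 50.3, 42.5 and 35.3 in myeloid libraries and 174, 90.2, 94.01, 80.5 and 101 in astrocyte libraries, so every astrocyte library was above every neuron library (edgeR adjusted p = 0.0123). The call was lost without astrocyte replicate 1 (log2 fold change -0.335, adjusted p = 0.069) and with library totals as the only scaling (-0.17, adjusted p = 0.39), from -0.578. Rab3a, a vesicle GTPase, averaged 14.3 ± 2.71 CPM in neuron, 13.2 ± 6.67 in myeloid and 10.7 ± 3.74 in astrocyte libraries and passed in neither comparison.

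Genes of transmitter synthesis and transport covered glutamate and GABA. Slc17a7, the vesicular glutamate transporter of cortex, stood at 119, 161, 104, 123 and 153 CPM in neuron libraries, 14.9, 5.05, 18.8, 8.9 and 16.5 in myeloid libraries and 27.97, 9.82, 12.02, 17.2 and 12.1 in astrocyte libraries. Gad2, a GABA-synthesising enzyme with the RE1 match shown above, stood at 69.3, 78.7, 94.4, 85.8 and 62.4 CPM in neuron libraries, 6.52, 20.9, 1.82, 4.996 and 4.07 in myeloid libraries and 4.91, 7.73, 5.55, 9.62 and 7.19 in astrocyte libraries. Neuron values lay above the rest in both genes, though myeloid replicate 2 held more Gad2 than its group. Of 14 genes 7 were tested and 6 were neuron-enriched. The monoaminergic and cholinergic genes Slc18a3, Chat, Th, Ddc, Tph2 and Slc6a4, and the glutamate transporter Slc17a8, were too low to test, with averages between 0 and 1.37 CPM in neurons.

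On the receiving side, 19 of 23 genes of glutamate receptors and the postsynaptic scaffold were neuron-enriched. Grin2a, an NMDA receptor subunit, stood at 381, 380.5, 358, 273 and 355 CPM in neuron libraries, 2.17, 10.6, 7.88, 9.68 and 17.4 in myeloid libraries and 10.04, 14.6, 20.04, 14.6 and 13.9 in astrocyte libraries. Gria3 and Gria4, AMPA receptor subunits, averaged 511 ± 51.6 CPM in neuron, 19.8 ± 8.96 in myeloid and 21.9 ± 5.71 in astrocyte libraries and 255 ± 21.9 CPM in neuron, 7.65 ± 2.46 in myeloid and 14.2 ± 7.79 in astrocyte libraries. The AMPA subunits therefore differed in astrocyte libraries: Gria3 and Gria4 were at 4.29% and 5.59% of the neuron level there, and Gria2 at 39.6%. Grm3, a metabotropic receptor, and Grin3a were lower in neurons than in astrocytes, with Grm3 at 98.3, 68.8, 52.2, 59.7 and 65.6 CPM in neuron libraries, 20.4, 13.3, 23.04, 21.1 and 27.8 in myeloid libraries and 253, 309, 181, 266 and 233 in astrocyte libraries. The scaffold gene Dlg4 did not pass against astrocytes (179.7 ± 51.7 CPM in neuron, 92.8 ± 30.8 in myeloid and 214 ± 46.9 in astrocyte libraries).

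Of 15 GABA receptor genes 11 were neuron-enriched. Gabrb2, a beta subunit, stood at 117, 169, 195, 177 and 147 CPM in neuron libraries, 2.72, 7.76, 7.88, 5.31 and 15.2 in myeloid libraries and 5.76, 5.85, 12.02, 8.85 and 11.2 in astrocyte libraries. Gabrg1, a gamma subunit, was highest in astrocytes and stood at 3.77, 5.396, 8.28, 9.5 and 4.12 CPM in neuron libraries, 0.815, 0, 1.21, 1.09 and 0.904 in myeloid libraries and 15.2, 32.8, 34.2, 35.1 and 51.8 in astrocyte libraries. Gphn, the GABA receptor scaffold, did not pass against astrocytes. Gabrb1 and Gabbr1 were likewise higher in astrocyte libraries (log2 fold changes -1.78 ± 0.20 and -0.69 ± 0.16, edgeR adjusted p = 1.26e-07 and 0.00104).

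All 19 tested calcium sensors and signalling enzymes, of 21 listed, were neuron-enriched, although 12 passed against a 2-fold difference. Calb1, the calcium buffer calbindin, stood at 45.8, 36.9, 41.2, 46.7 and 38.3 CPM in neuron libraries, 0.543, 0.1804, 2.73, 1.41 and 0.904 in myeloid libraries and 7.05, 1.46, 2.47, 1.71 and 1.74 in astrocyte libraries. Rasgrf1, a calcium-responsive Ras exchange factor, averaged 863 ± 206 CPM in neuron, 39.99 ± 12.8 in myeloid and 118 ± 37.6 in astrocyte libraries. Plcb1, a phospholipase, had the smallest difference against astrocytes in this list, 0.67 ± 0.18 (log2, SE), with 520.5 ± 159 CPM in neuron, 26.02 ± 4.23 in myeloid and 327 ± 45.7 in astrocyte libraries. Calb2 and Pvalb, 2 interneuron markers, were too low to test.

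Of 18 neuropeptides, granins and trophic factors 16 were neuron-enriched. Pcsk2, a prohormone convertase, stood at 277, 283, 238, 238 and 249 CPM in neuron libraries, 6.25, 12.3, 7.28, 10.6 and 6.33 in myeloid libraries and 10.7, 9.4, 11.1, 12.1 and 9.67 in astrocyte libraries. Tac1 and Sst, which encode the peptides substance P and somatostatin, averaged 15.1 ± 6.44 CPM in neuron, 0.731 ± 0.818 in myeloid and 0.617 ± 0.347 in astrocyte libraries and 27.95 ± 10.2 CPM in neuron, 2.45 ± 0.587 in myeloid and 1.98 ± 0.796 in astrocyte libraries. Bdnf, a trophic factor, averaged 15.97 ± 4.92 CPM in neuron, 0.262 ± 0.471 in myeloid and 2.72 ± 1.29 in astrocyte libraries. Its receptor gene Ntrk2 stood at 708, 627, 558, 673 and 687 CPM in neuron libraries, 66.5, 90.7, 113, 71.7 and 74.2 in myeloid libraries and 1364, 1742, 1686, 1432 and 1676 in astrocyte libraries, and so was highest in astrocytes (log2 fold change -1.28 ± 0.15, edgeR adjusted p = 2.66e-07). The other exception was Npy, which passed against astrocytes and not against the myeloid sort (edgeR adjusted p = 0.0736).

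Among the 14 lists of neuronal genes, adhesion molecules had the highest median level in astrocytes relative to neurons. All 25 were higher than in myeloid libraries, 17 were neuron-enriched and 6 were lower than in astrocytes, among them Nrxn2, Nlgn3, Ncam1, Ntm and Lsamp. Nlgn2 and Cadm2 did not pass against astrocytes. The median level in astrocyte libraries was 50.4% of the neuron level and in myeloid libraries 7.21%. Nrxn3, a presynaptic adhesion protein of the neurexin family, stood at 1182, 1098, 984, 1136 and 1165 CPM in neuron libraries, 23.4, 40.9, 40.3, 24.8 and 22.6 in myeloid libraries and 111, 65.4, 72.4, 88.6 and 58.5 in astrocyte libraries, whereas its relative Nrxn2 averaged 55.4 ± 7.37 CPM in neuron, 10.3 ± 5.31 in myeloid and 144 ± 41.7 in astrocyte libraries. Cntnap2, a neurexin relative at axons, averaged 249.7 ± 13.8 CPM in neuron, 6.53 ± 3.25 in myeloid and 8.86 ± 4.47 in astrocyte libraries. Lsamp, a GPI-anchored adhesion protein, stood at 134, 151, 157, 158 and 143 CPM in neuron libraries, 30.7, 16.4, 29.1, 33.6 and 40.02 in myeloid libraries and 664, 722, 656, 634 and 722 in astrocyte libraries.

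**Figure D3:**
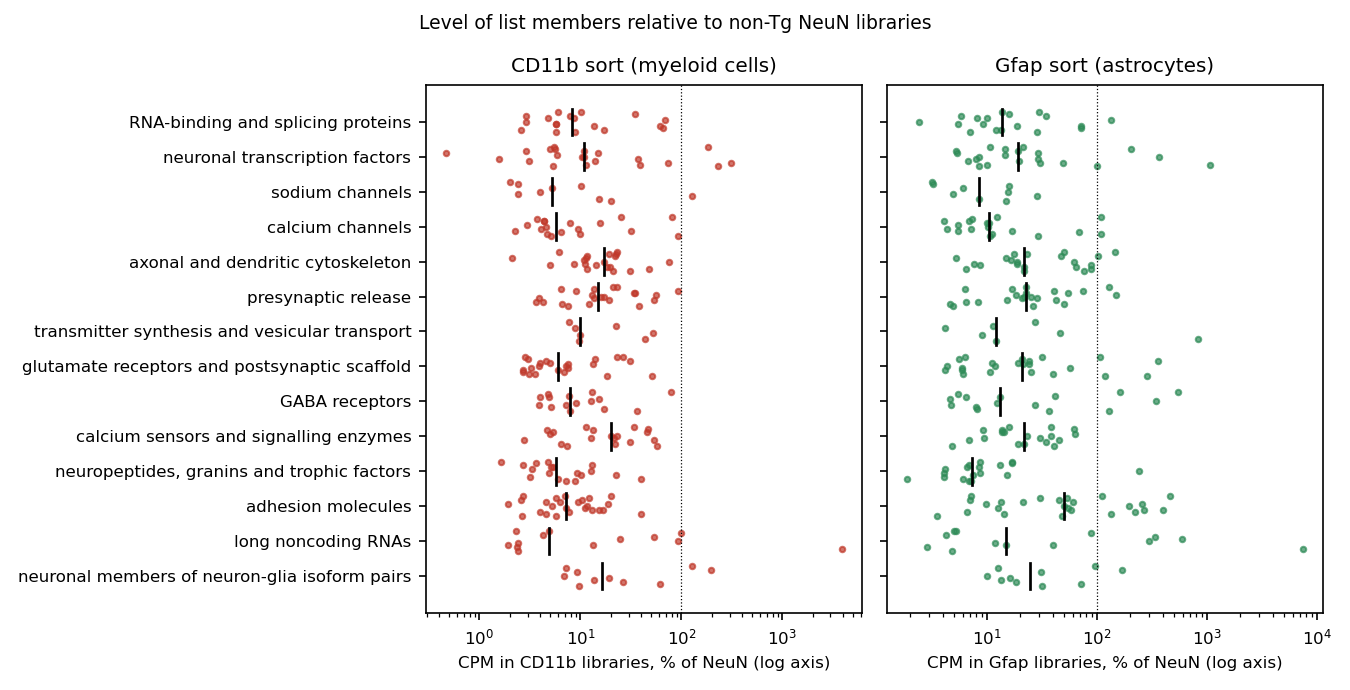
Mean CPM of each tested member of 14 gene lists in myeloid (left) and astrocyte (right) libraries as a percent of its mean in neuron libraries, on a log axis, with a point per gene and a black bar at the list's median. The dotted line is the neuron level. In astrocyte libraries the median of the adhesion list, 50.4%, is the highest, and that of the neuropeptide list, 7.26%, the lowest.

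Of 21 genes of the axonal and dendritic cytoskeleton, 15 were neuron-enriched, and 19 with library totals as the only scaling. Ank3, the ankyrin of the axon initial segment, stood at 2376, 1751, 1670.2, 1684 and 1948 CPM in neuron libraries, 73.9, 143, 95.2, 74.01 and 85.9 in myeloid libraries and 181, 144, 145, 233 and 111 in astrocyte libraries. Its relative Ank2 stood at 2757, 1883, 1847, 1890.1 and 2145 CPM in neuron libraries, 566, 513, 475, 425 and 465 in myeloid libraries and 3656, 3227, 2725, 3121 and 2746 in astrocyte libraries, lower than in astrocytes (log2 fold change -0.56 ± 0.15, edgeR adjusted p = 0.00288; adjusted p = 0.147 with library totals). Sptbn4, the spectrin that binds Ank3, averaged 209.7 ± 77.3 CPM in neuron, 24.3 ± 35.8 in myeloid and 13.5 ± 5.68 in astrocyte libraries. Mapt, which encodes tau, averaged 131 ± 22.9 CPM in neuron, 18.8 ± 8.005 in myeloid and 116 ± 19.7 in astrocyte libraries and Kif1a, a vesicle motor, 1169 ± 469 CPM in neuron, 135 ± 17.96 in myeloid and 1197 ± 327 in astrocyte libraries; neither passed against astrocytes, nor did Nefl and Kif3c, and Kif5a did not pass against the myeloid sort. Dync1i1, a dynein subunit, averaged 39.8 ± 6.79 CPM in neuron, 0.843 ± 0.474 in myeloid and 2.096 ± 0.962 in astrocyte libraries.

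Pairs of genes with a neuronal and a glial member separated largely by sort. Of 10 neuronal members 8 were neuron-enriched, and of 10 glial members none was, while 4 were lower against both sorts. Slc12a5, the chloride exporter, stood at 195, 195, 156, 205 and 211 CPM in neuron libraries, 4.07, 9.92, 19.1, 16.1 and 16.96 in myeloid libraries and 26.9, 15.9, 14.5, 18.8 and 19.3 in astrocyte libraries, so that no other library reached the neuron values. Slc1a1, the neuronal glutamate transporter, averaged 68.9 ± 8.33 CPM in neuron, 5.01 ± 2.09 in myeloid and 8.68 ± 4.09 in astrocyte libraries. Glul, the glial glutamine synthetase, averaged 40.4 ± 7.42 CPM in neuron, 434 ± 52.5 in myeloid and 841 ± 107 in astrocyte libraries. Ldhb, listed as neuronal, averaged 12.1 ± 1.62 CPM in neuron, 23.9 ± 3.02 in myeloid and 20.5 ± 4.34 in astrocyte libraries and was lower in neurons against both sorts (edgeR adjusted p = 0.000344 and 0.0045; adjusted p = 0.156 against astrocytes with library totals).

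Among 13 long noncoding RNAs, 8 were neuron-enriched. Miat averaged 627 ± 67.7 CPM in neuron, 15.3 ± 3.804 in myeloid and 74.1 ± 41.2 in astrocyte libraries and Snhg14 64.8 ± 30.5 CPM in neuron, 1.24 ± 0.722 in myeloid and 9.598 ± 5.05 in astrocyte libraries. Snhg14 overlaps Ube3a on the other strand, and with the counting strand unknown its value may include reads of that gene. Neat1, the scaffold of nuclear paraspeckles, went the other way, with 0.858, 0.878, 2.69, 3.83 and 2.44 CPM in neuron libraries, 129, 88.6, 50.6, 57.5 and 90.7 in myeloid libraries and 206, 129, 114, 177 and 173 in astrocyte libraries. Malat1, a nuclear RNA, averaged 86275 ± 8955 CPM in neuron, 46181 ± 10941 in myeloid and 288760 ± 78816 in astrocyte libraries, so that neurons lay between the other sorts. By annotated type, 508 of 1843 long noncoding RNAs (27.6%) and 2628 of 13733 protein-coding genes (19.1%) were neuron-enriched. Over all tested genes the share was 20.6%. A gene with few counts outside neurons can be tested through its neuron counts alone, which nearly fixes the call. How far this differs between the types was not tested, so their shares are descriptions.

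Genes lowest in neurons against both sorts included Mertk, a phagocytic receptor, with 6.18, 5.02, 10.4, 8.83 and 7.47 CPM in neuron libraries, 1049, 1359, 1225, 1411 and 1326 in myeloid libraries and 462, 531, 749, 426 and 671 in astrocyte libraries. Tlr3, a sensor of double-stranded RNA, averaged 0.844 ± 0.335 CPM in neuron, 86.6 ± 24.8 in myeloid and 108 ± 23.5 in astrocyte libraries. Zfp36l1, which destabilises mRNAs, averaged 0.774 ± 0.463 CPM in neuron, 84.9 ± 21.3 in myeloid and 116 ± 27.3 in astrocyte libraries, and Plxnb3, a semaphorin receptor, 0.708 ± 0.492 CPM in neuron, 52.95 ± 14.8 in myeloid and 103 ± 28.6 in astrocyte libraries. Plekhg2 and Plekho2, which carry pleckstrin homology domains, averaged 0.639 ± 0.226 and 1.04 ± 0.389 CPM in neurons and more than 50 CPM in each other sort. Of 13 tested housekeeping genes only Tfrc, the transferrin receptor, was neuron-enriched (70.6 ± 11.7 CPM in neuron, 8.47 ± 4.04 in myeloid and 27.5 ± 7.901 in astrocyte libraries), and it did not pass against a 2-fold difference over astrocytes. Gapdh, Ppia and Rplp0 averaged 4.79 ± 0.848, 2.31 ± 0.912 and 0.964 ± 0.421 CPM in neurons; the deposited counts hold uniquely aligned reads, and these genes have many near-identical pseudogene copies, so their levels are uncertain.

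Neuron-enriched protein-coding genes were long. Their median span in the RefSeq annotation was 53.9 kb (n = 2628), against 26.2 kb for all 13733 tested protein-coding genes and 22.2 kb for the 2299 lower against both sorts. Spans above 100 kb were held by 849 of them (32.3%), by 16.1% of all tested and by 12.8% of the lower genes. Against a 2-fold difference the median span of the neuron-enriched genes was 64.7 kb. The longest were Dmd (2390 kb), which encodes dystrophin, Ptprd (2271 kb), a receptor phosphatase of synapse formation, Cntnap2 (2241 kb) and Lrp1b (2058 kb), a lipoprotein receptor. Dmd averaged 1540 CPM in neurons, 53.5 in myeloid and 784 in astrocyte libraries.

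**Figure D4:**
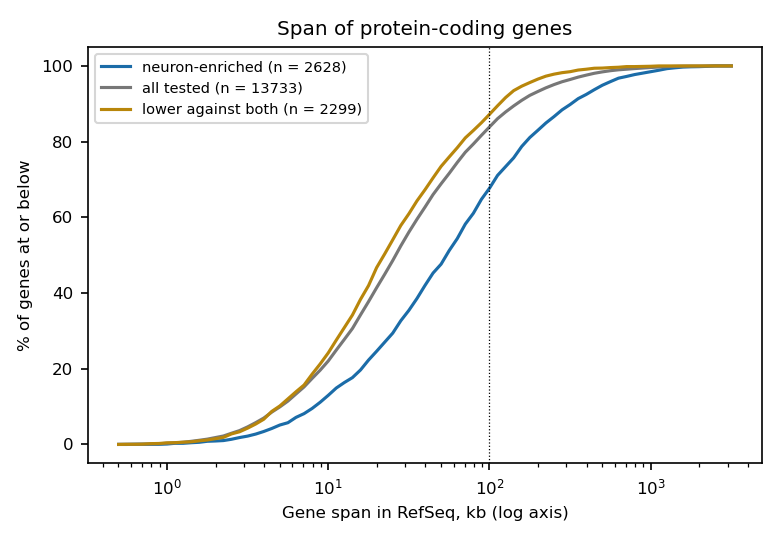
Cumulative percent of protein-coding genes (y axis) up to a given gene span in kb (x axis, log) for 2628 neuron-enriched genes, 2299 genes lower against both sorts and all 13733 tested. At the dotted line of 100 kb the neuron-enriched curve is lowest, since 32.3% of these genes are longer.

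The libraries of PS2APP mice took no part in the rule and gave a test of the calls in other libraries. Their sorts had the same labelled RNA yields and spin speeds, so these steps and cell type cannot be told apart here either. Of the 3597 genes, 3240 were tested in the 15 PS2APP libraries and 2533 of these (78.2%) were again higher in neurons against both sorts, where 2749 of 15385 tested genes (17.9%) were called. The fitted fold changes were positive against both sorts in 3196 of the 3240. Of the PS2APP set, 92.1% was in the non-Tg set. Per list, the number of members called was 17 of 18 tested in non-Tg and 16 of 18 in PS2APP libraries for RNA-binding proteins, and 8 of 9 in both for sodium channels. It was 13 and 15 of 18 for calcium channels, 19 and 18 of 23 for glutamate receptors and scaffold, and 19 and 15 of 22 for presynaptic genes. For calcium sensors it was 19 and 13 of 19, and for transmitter genes 6 and 4 of 7. Snap25 was among those not called again, with PS2APP log2 fold changes of 1.32 ± 0.39 and 0.39 ± 0.38 (edgeR adjusted p = 0.00553 and 0.423). Its difference between genotypes did not pass in a fit of all 30 libraries (edgeR interaction test, adjusted p = 0.429 and 0.432). PS2APP myeloid libraries were shallower, with totals of 2015535 to 2908222 counts against 3578249 to 6143018 in non-Tg myeloid libraries. PS2APP astrocyte totals ran from 2852260 to 6235552. The effect of depth on the lost calls was not tested.

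**Figure D5:**
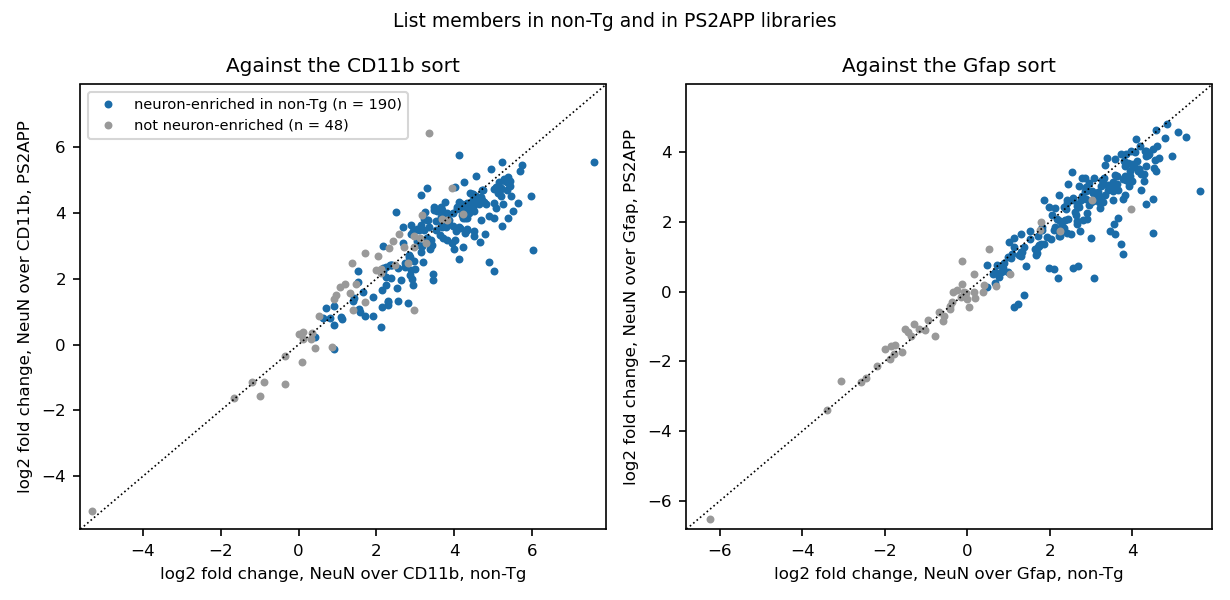
Log2 fold change of list members in non-Tg libraries (x axis) and in PS2APP libraries (y axis), against the myeloid (left) and the astrocyte sort (right), with a point per gene and a dotted line of equal change. Blue points are the 190 members that were neuron-enriched in non-Tg libraries and grey points the 48 that were not; nearly all blue points are above 0 on both axes.

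The difference between genotypes was tested in a fit of all 30 libraries. Against the myeloid sort 19 of 18101 genes (0.105%) differed between genotypes, and against the astrocyte sort 6 (0.0331%); at an unadjusted p of 0.05 these were 1746 and 900 genes. Of the neuron-enriched genes, 7 differed against the myeloid sort and 0 against the astrocyte sort. Lpl, lipoprotein lipase, was the only neuron-enriched gene called lower in PS2APP neurons against another PS2APP sort (edgeR adjusted p = 0.00102). In non-Tg libraries it averaged 11.8 ± 2.796 CPM in neurons and 3.85 ± 0.729 CPM in myeloid cells, and in PS2APP libraries 7.77 ± 2.08 and 28.1 ± 9.42 CPM (SD, n = 5 each). Its log2 fold change against the myeloid sort differed by -3.39 ± 0.60 between genotypes (SE; edgeR adjusted p = 0.00506).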

How the data were processed

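RNA-seq of sorted cells was analysed from the authors' deposited per-library tables. Per the file headers, the deposited counts are uniquely aligned reads for a gene model, and the deposited RPKM carry a size-factor adjustment. The aligner was GSNAP and the build GRCm38, per the submitters' processing notes; no version, annotation or strand setting is given in the sources used here. Of 36528 identifiers, 31049 had symbols in the GRCm38.p6 RefSeq table (96.7% of counts).

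Counts of 15 non-Tg libraries were fitted jointly in edgeR 4.0.16 (R 4.3.3; filterByExpr, TMM, quasi-likelihood test, Benjamini-Hochberg at 0.05). SE is the log2 fold change over the square root of F. CPM use TMM library sizes. A fold threshold used glmTreat. PS2APP libraries were fitted apart. All libraries of a sort differed by more than counting noise (chi-square over its degrees of freedom at least 3.71). In each non-Tg library 3 counts were worth under 1 CPM. Permutation tests used scipy 1.17.1.

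In simulated counts of 17496 genes for NeuN against CD11b, 30 of 100 2-fold changes and 81 of 100 4-fold changes were called. There were 6 false calls. Only these changes were put in, whereas 6447 genes were called higher and 5811 lower in neurons against the myeloid sort in non-Tg libraries. The share of changes called when so many genes differ was not tested.

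Named are the 4 markers, sort genes, the 12 largest and 10 highest enriched genes with full symbols, list extremes, 6 lowest genes and those nearest the threshold; other list members and Lpl were named after their values were seen. Members and lists were chosen with earlier results of these data known. Some genes that the rule names are not reported here.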

Additional observations from a re-analysis of the deposited data

Results flagged for a closer look

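Of 288 sets of 5 libraries examined (95 named genes and the mitochondrial share in each sort), 30 (10.4%) held a library whose gap to the nearest of the others, divided by the range, was above Dixon's 95% critical value. By that definition chance gives about 1 in 20 for normal values, but the genes share libraries and many were chosen as extremes. Neuron replicate 1 accounted for 9 and astrocyte replicate 1 for 9. In neuron replicate 1 the values stood high for Cdr1 (5058 CPM), Myt1l (1264 CPM), Zranb2 (930.4 CPM), Plcb1 (796 CPM), Nova1 (115 CPM), Sgcz (54.4 CPM) and Plekho2 (1.72 CPM), and low for Togaram1 (75.7 CPM) and Gusb (2.57 CPM). In other neuron libraries Grin2a was low in replicate 4 (273 CPM) and Plekhg2 in replicate 2 (0.251 CPM).

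In astrocyte replicate 1 the values stood high for Snhg11 (593 CPM), Vamp2 (174 CPM), Myt1l (96.1 CPM), Mir297a-2 (11.1 CPM), Epha10 (8.11 CPM), Calb1 (7.05 CPM), Mirg (4.91 CPM) and Neurod1 (2.56 CPM), and low for Sgcz (0.427 CPM). Plxnb3 was low in astrocyte replicate 5 (53.3 CPM). In myeloid replicate 2 the values stood high for Itgam (1931 CPM), R3hdm1 (345 CPM), Snhg11 (182 CPM), Gad2 (20.9 CPM) and Npas4 (9.74 CPM). In myeloid replicate 1 they did for Cntn5 (6.25 CPM) and Cacng8 (1.90 CPM), and in replicate 3 for Lrrtm3 (10.0 CPM) and Neurod1 (0.303 CPM).

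The difference from the myeloid sort changed with genotype in 7 neuron-enriched genes (edgeR interaction test, adjusted p of 0.000274 to 0.02998). As PS2APP minus non-Tg log2 fold change, it was -6.23 for Sbk3, -5.97 for ID102642565 (an identifier without a symbol), -5.49 for Gm36907, -3.40 for Ankrd45, -3.39 for Lpl, -3.01 for Faxc and -2.51 for Etl4. In myeloid libraries Etl4 averaged 18.6 ± 4.98 CPM without and 108 ± 37.6 CPM with the transgenes (SD, n = 5 each). Gm36907 and ID102642565 had nearly equal values in every group. Both, and Sbk3, averaged only 0.0361 to 0.151 CPM in non-Tg myeloid libraries. In PS2APP myeloid libraries the SD was above the mean for Sbk3 (5.78 ± 7.45 CPM), Gm36907 and ID102642565 (5.46 ± 6.67 CPM each) and Ankrd45 (11.1 ± 12.6 CPM), so these differences rest on few counts and uneven libraries.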

How the results depend on the processing

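The count of neuron-enriched genes was 3495 to 4418 with other scalings, with other tests of the same hypothesis, without a filter and with each pair of sorts fitted alone. It was 3279 with all 30 libraries and 3139 without mitochondrial genes and identifiers with no symbol. Against a 2-fold difference it was 2231; 1299 genes were then lower against both sorts, 3486 lower than in myeloid cells, 2776 higher and 2567 lower than in astrocytes, and 1637 passed again in PS2APP libraries. Keeping genes with a mean of at least 10 CPM left 2308 neuron-enriched genes, 3895 higher than in myeloid cells and 3389 higher than in astrocytes, since 10447 genes were tested. Leaving out each library gave 3450 to 3843. Library totals alone moved the median log2 fold change of all genes from 0.08 to 0.29 (myeloid) and 0.44 (astrocyte), and higher calls against astrocytes to 66.5% of calls from 52.4%; 4418 genes were then enriched, with all 3597 among them. Of 4977 values of named genes under alternatives, 4847 kept direction and call, 100 lost and 27 gained the call, in 17 genes. The sign turned for Cacng8 against astrocytes (0.241 with library totals, 0.074 without astrocyte replicate 1 and 0.058 without neuron replicate 3), from -0.131; leaving out libraries gave -0.245 to 0.074. The 2-fold alternative tests fewer small differences by construction. No paired analysis was possible because the labels give no replicate numbers.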
